A study of Homo sapiens with 14 samples.

Results

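Foregut cells derived from human embryonic stem cells (hESCs) were compared with the definitive endoderm stage that precedes them, using the control libraries of both stages. The comparison used 5 of the 12 bulk RNA-seq libraries of the study (14 samples in all), chosen by their titles: 3 control endoderm libraries and 2 control foregut libraries. Endoderm was made with 100 ng/ml Activin A for 3 days together with the GSK-3 inhibitor CHIR-99021 at 5 μM on the first day and 0.5 μM on the second, in cells that per the labels express dCAS9-KRAB, a repressor fused to a Cas9 that does not cut, without an sgRNA. Foregut cells had 3 days of endodermal differentiation and then 3 days of foregut differentiation with a commercial pancreatic protocol, and were harvested on day 6. The composition of the foregut medium and whether the control foregut cells carry dCAS9-KRAB are not given in the sources used here. The study's methods call RNA-seq replicates independent, but no label says which step they share, so p values measure the spread between these libraries.

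Definitive endoderm is the germ layer that gives rise to the gut tube and its organs. It forms under Nodal or Activin signals with WNT, from cells that pass through a mesendoderm state with EOMES and MIXL1. Its anterior part, the foregut, is patterned by retinoic acid, FGF, BMP and WNT inhibition, and yields liver, pancreas, lung, thyroid, stomach and duodenum. FOXA and GATA4/6 factors mark endoderm throughout, and PDX1 marks the posterior foregut from which the pancreas and duodenum grow.

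The labels of the foregut libraries differ among themselves and from the data. Their titles name the foregut control, whereas their status and medium labels describe undifferentiated hESCs. The pluripotency gene POU5F1 stood at 2.53 and 4.33 CPM (counts scaled to a common library total) in the 2 foregut libraries, against 652 to 825 CPM in endoderm, and gut genes were present, so the status label goes against the data and the title was followed. All 5 libraries are labelled as the H9 line, but the growth protocol of the foregut libraries names H9 and H1 cells. In a check of the line label on 5 genes, 2 of the 5 libraries did not match it, those of the foregut group, and of all 12 bulk libraries 4 did not match it, those of both foregut groups. Stage, cell line and library set therefore change together in this comparison and cannot be told apart by it.

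The foregut libraries also differed from the endoderm libraries in how reads were spread over genes. They held more gene reads, 32641546 and 37152434 against 16376503 to 21534304, but fewer genes with a read, 17357 and 17926 against 20250 to 20840. Genes with 1 to 9 reads made up 7.35% and 6.7% of the genes detected in foregut and 28.4 to 29.6% in endoderm. Among all transposable element (TE) integrants with more than 2 reads, the most frequent read count was 9 in both foregut libraries, and counts of 3 and 4 were less frequent. The cause was not tested. Because few foregut genes had low counts, a 0 there was not read as absence from the cells, and counts are also given for genes whose mean reached 5 CPM in 1 group. Mitochondrial genes took 28.95% and 17.59% of gene reads in foregut and 8.299 to 14.41% in endoderm.

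**Figure D1:**
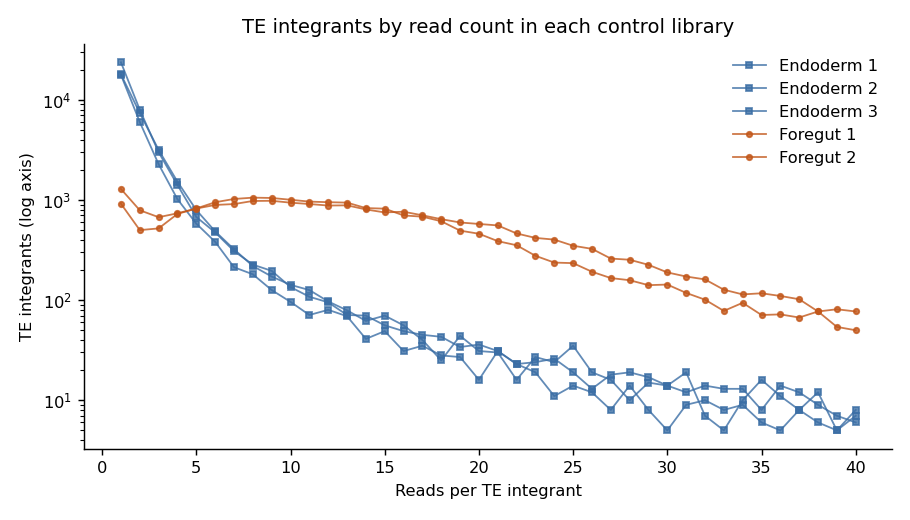
Number of TE integrants (log axis) outside exons by the number of reads per integrant, from 1 to 40, in each of the 5 control libraries. The curves of the 3 endoderm libraries fall steeply from 1 read, whereas those of both foregut libraries dip after 1 read and rise again to a second peak, at 9 reads per integrant in the first and 8 in the second.

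Of 21466 genes tested with edgeR, 3018 were higher in foregut (14.1%) and 3214 were lower (15.0%) when both an adjusted p below 0.05 and a more than 2-fold change were required (29.0% in all). Among the 11733 genes whose mean reached 5 CPM in 1 group, 2147 were higher (18.3%) and 2461 were lower (21.0%), 39.3% in all. The groups did not overlap for 59.0% of all genes tested and for 70.7% of those with 5 CPM, so that separate groups are common in this comparison. The median log2 fold change over all genes was −0.09, or 0.00 with genes at 0 in 1 group set at their bound, and other scalings and fits placed it between −0.23 and 0.02. Genes above 500 CPM in the higher group were more often lower (80) than higher (59) among 312. Those between 1 and 5 CPM were more often higher (728) than lower (445) among 3255. In bulk RNA, fewer cells of a type and less RNA per cell cannot be told apart.

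**Figure D2:**
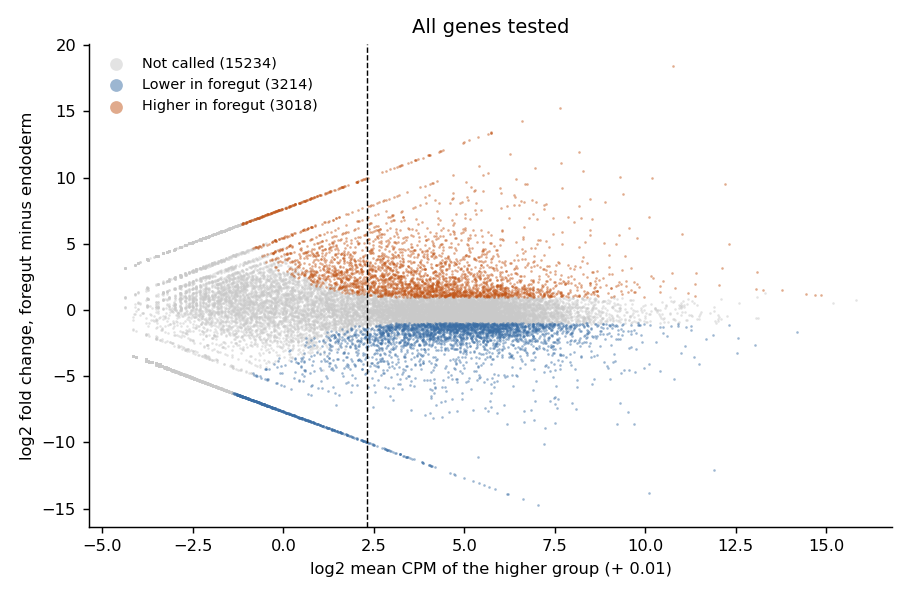
Log2 fold change of every gene tested (foregut minus endoderm) against the log2 mean CPM of the higher group plus 0.01. Genes called higher (3018) and lower (3214) are coloured, the dashed line marks 5 CPM, and the straight edges are genes at 0 in 1 group, whose fitted fold depends on the prior count.

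A second measurement of the step came from the foregut and endoderm libraries titled CRISPRi (2 and 3 libraries), in which dCAS9-KRAB is aimed at LTR5 elements and which share no library with the controls. The status label of its foregut libraries says that they carry no sgRNA, so their titles were followed here too. Of the control calls tested there, 2106 of 2969 higher genes were also called higher (70.9%, or 79.0% of the 2667 higher calls of that arm among genes tested in both) and 2025 of 3213 lower genes were also called lower (63.0%, or 73.0% of 2775), with 1 gene called in the opposite direction. In that arm 26.3% of 20735 genes were called, 2682 higher and 2775 lower. A difference of the step between the arms was called for 0.194% of genes, 0.0528% with a higher and 0.141% with a lower log2 step in the CRISPRi arm. Its foregut libraries share the result of the line check and the shortage of low counts, with 11 and 26 as the most frequent read count of TE integrants. A 0 there was not read as absence either.

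Most factors of pluripotency and mesendoderm were lower in foregut. All 9 mesendoderm factors tested were called lower, with a median log2 fold change of −7.29. Of 15 pluripotency genes, 12 were lower and 1 was higher, with a median of −3.21. POU5F1, which encodes OCT4, measured 825, 715 and 652 CPM in endoderm and 2.53 and 4.33 CPM in foregut (log2 fold change −7.73 with a standard error (SE) of 0.35 and an adjusted p of 2.4e-06). NANOG, its partner in the pluripotency network, measured 27.3, 30.4 and 21.6 CPM in endoderm and was at 0 in both foregut libraries, at least 68.4-fold lower. The bound takes 27 foregut reads, 3 times the most frequent count of 9, as the floor over both libraries, which is 0.386 CPM.

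EOMES, the T-box factor that starts the endoderm programme, measured 560, 593 and 643 CPM against 1.01 and 2.05 CPM (log2 fold change −8.59, SE 0.38, adjusted p 2.4e-06). MIXL1, a homeobox factor of the primitive streak, measured 978, 646 and 860 CPM against 1.65 and 2.61 CPM (−8.59, SE 0.37). Both genes were high in all 3 endoderm libraries and near the detection limit in both foregut libraries. GSC, a marker of the anterior streak, went the same way, from 99.6, 99.9 and 98.6 CPM to 0.162 and 0.820 CPM. OTX2, a factor of anterior tissue, kept a higher level in foregut, 27.8 and 23.8 CPM, but was also called lower (−4.26, SE 0.22).

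Pluripotency genes did not all move together. SOX2, which is shared by pluripotent cells and the anterior foregut, was the member called higher, from 29.0, 25.0 and 15.5 CPM to 191 and 142 CPM (log2 fold change 2.84, SE 0.29, adjusted p 0.00013). LIN28A, an RNA-binding protein that blocks let-7 maturation, measured 677, 711 and 576 CPM in endoderm and 800 and 576 CPM in foregut, and the groups overlapped (adjusted p 0.80). Its sign was not stable over the alternatives. DNMT3B, the de novo methyltransferase of pluripotent cells, measured 183, 255 and 193 CPM against 20.4 and 18.6 CPM (−3.43, SE 0.25), and TET1, which oxidises methylcytosine, 130, 91.8 and 82.1 CPM against 15.4 and 10.2 CPM (−2.98, SE 0.31). Of 7 DNA methylation genes tested, 3 were lower and none was higher by edgeR, beside 15.0% and 14.1% of all genes tested. DNMT3A, with 36.1 to 40.7 CPM in endoderm and 32.0 and 42.5 CPM in foregut, did not pass (adjusted p 0.92).

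**Figure D3:**
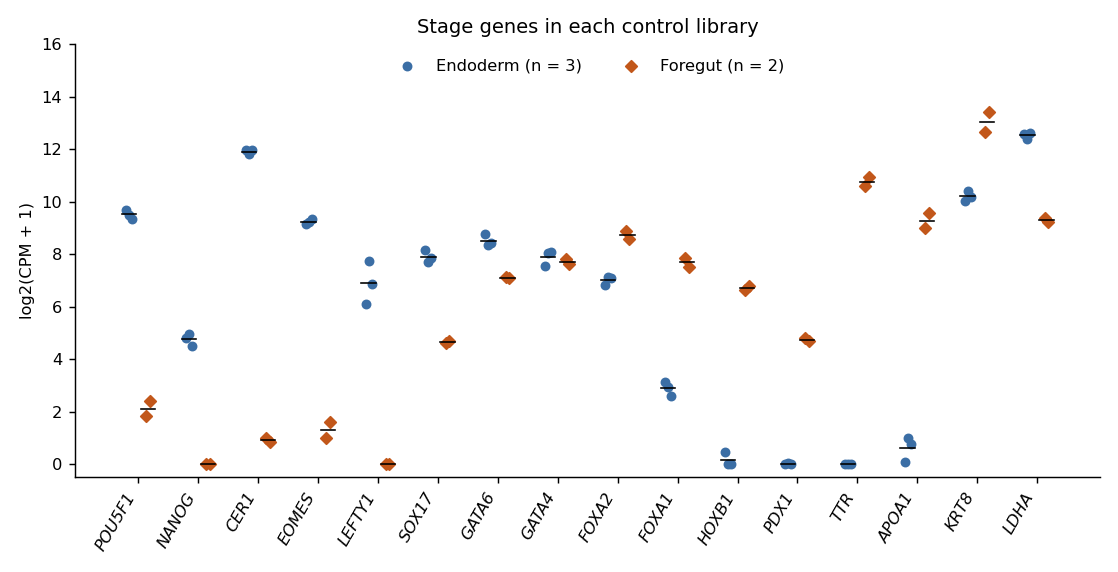
Expression of 16 stage genes as log2(CPM + 1) in each control library, with endoderm (3 circles) and foregut (2 diamonds) and a line at the mean of each group. POU5F1, NANOG, CER1, EOMES and LEFTY1 are lower in both foregut libraries, GATA4 overlaps between the groups, and FOXA1, HOXB1, PDX1, TTR and APOA1 are higher in both foregut libraries.

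Endoderm genes split. Of 12 definitive endoderm genes, 6 were lower, 2 were higher and 4 were not called, beside 15.0% lower and 14.1% higher among all genes tested. CER1, a secreted antagonist of Nodal, BMP and WNT on chromosome 9, measured 3958, 3551 and 4016 CPM in endoderm and 0.973 and 0.794 CPM in foregut (log2 fold change −12.09, SE 0.29, adjusted p 2.6e-07). Its level in foregut was near the detection limit in both libraries. SOX17, the factor that fixes endoderm identity, measured 284, 207 and 231 CPM against 23.4 and 24.7 CPM (−3.32, SE 0.24), and CXCR4, the chemokine receptor used to sort endoderm, 362, 285 and 236 CPM against 55.3 and 34.7 CPM (−2.71, SE 0.30). Both were still detected in each foregut library.

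The GATA and FOXA factors behaved differently from SOX17. GATA6 measured 431, 324 and 338 CPM in endoderm and 139 and 135 CPM in foregut (log2 fold change −1.41, SE 0.21, adjusted p 0.00095). GATA4 measured 185, 261 and 270 CPM against 224 and 196 CPM, with overlapping groups (−0.19, SE 0.22, adjusted p 0.52). It was called in 0 of 15 alternatives, but in the LTR5 CRISPRi arm it was called lower (−1.22, adjusted p 0.0092). FOXA2, the pioneer factor of endoderm, rose from 113, 138 and 137 CPM to 476 and 376 CPM (1.72, SE 0.20, adjusted p 0.00025). FOXA1, which acts with it in gut organs, rose from 7.72, 6.63 and 5.13 CPM to 231 and 183 CPM (4.99, SE 0.26, adjusted p 4.9e-06).

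Among 18 gut tube and foregut factors tested, 6 were higher and 2 were lower, with a median log2 fold change of 0.21. Of all genes tested, 14.1% were higher and 15.0% lower. PDX1, the factor of pancreas and duodenum, had 1 read over the 3 endoderm libraries and 27.0 and 24.6 CPM in foregut, a 1492-fold ratio with an exact Poisson 95% interval of 268 to 58929 for counting error only (adjusted p 5.9e-06). MNX1, a homeobox factor of the dorsal pancreas, rose from 7.87, 7.32 and 7.31 CPM to 61.9 and 58.5 CPM (3.00, SE 0.22). SOX9 rose to a mean of 10.9 CPM from 1.44 CPM (2.92), and RFX6, a factor of endocrine precursors and gut endoderm, was at 0 in endoderm and at 62.4 and 43.2 CPM in foregut (at least 1018-fold higher).

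The list also held members that fell or could not be read. HNF4A, the nuclear receptor of liver and gut, measured 4.33, 21.4 and 17.6 CPM in endoderm and 34.0 and 29.5 CPM in foregut, without overlap but with a wide endoderm spread (1.13, SE 0.52, adjusted p 0.12). TBX3, a factor of the liver bud, fell from 24.4, 28.7 and 39.3 CPM to 3.05 and 2.15 CPM (−3.57, SE 0.35), and IRX3 fell from a mean of 22.3 CPM to 5.10 CPM. HHEX, which is needed for liver and thyroid buds, measured 49.6, 53.4 and 48.3 CPM against 43.7 and 23.0 CPM (−0.60, adjusted p 0.14). NKX2-1, which marks lung and thyroid, and NKX6-1, a later pancreatic factor, were at 0 in both foregut libraries and under 0.2 CPM in endoderm. With so few low counts in foregut, their state there could not be read. KLF5 was higher (1.12, adjusted p 0.015), but this call was made in only 11 of 15 alternatives.

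HOX genes give a position along the gut axis, since 3′ members of the clusters are used anteriorly and 5′ members posteriorly. Of 12 anterior HOX genes tested (groups 1 to 5), 9 were higher and none was lower, with a median log2 fold change of 5.50, or 5.08 with genes at 0 in 1 group set at their bound. HOXB1 measured 0.398, 0 and 0 CPM in endoderm and 97.8 and 108 CPM in foregut (9.49, SE 0.67, adjusted p 1.9e-05). It was near 0 in endoderm and high in both foregut libraries. HOXB2 (31.6 and 37.2 CPM in foregut), HOXB3 (7.20 and 5.07 CPM) and HOXA3 (8.85 and 4.35 CPM) were also higher. Of 8 posterior factors, 5 were tested, of which CDX2, a factor of the intestine, was higher at 24.4 and 12.3 CPM against 0.138 to 0.500 CPM (5.62, SE 0.53). HOXB9, with a mean of 0.456 CPM in endoderm and 0 in foregut, lay too close to the foregut floor of 0.386 CPM to be read. In the LTR5 CRISPRi arm, 5 of 11 anterior HOX genes were called higher, and CDX2 was not called (2.09, adjusted p 0.094).

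Genes for proteins that liver and yolk sac secrete rose together. Of 17 tested, 15 were higher and none was lower, with a median log2 fold change of 8.74, the highest of the 30 lists. TTR, a carrier of thyroid hormone (chromosome 18, 29136972 to 29178796 on hg19), had no read in any endoderm library and 1537 and 1951 CPM in foregut, at least 33608-fold higher with a floor of 3 reads over the endoderm group (0.0519 CPM). APOA1, the main protein of high-density lipoprotein, measured 0.0498, 1.01 and 0.688 CPM against 505 and 762 CPM (10.07, SE 0.60), and APOA2 0.846, 2.02 and 1.81 CPM against 595 and 739 CPM (8.74, SE 0.36). VTN, vitronectin, reached 234 and 340 CPM. All of these were high in both foregut libraries.

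Some secreted proteins differed widely between the 2 foregut libraries. AFP, the albumin-like protein of fetal liver and yolk sac, was at 0 in endoderm and at 187 and 4.81 CPM in foregut, at least 1846-fold higher as a mean (adjusted p 0.0038, up in both libraries but carried by the first). It was not called with limma voom (adjusted p 0.15), and it measured 0.0363 and 0 CPM in the LTR5 CRISPRi foregut, where it was not tested. FGB, fibrinogen beta, measured 88.7 and 17.4 CPM, SERPINA1, alpha-1-antitrypsin, 46.4 and 23.8 CPM, and F2, prothrombin, 48.7 and 52.1 CPM, with 0 in all endoderm libraries for each. ALB, APOA4 and AHSG, which mature hepatocytes make, had too few reads to be tested. APOE was already present in endoderm, at 310, 251 and 260 CPM, and was higher in foregut at 461 and 1356 CPM (1.73, SE 0.37, adjusted p 0.0066). APOC1 overlapped between groups (adjusted p 0.44). BAAT, which joins bile acids to amino acids, was at 0 in endoderm and at 1.04 and 1.05 CPM in foregut, at least 20.1-fold higher (adjusted p 0.0094). Of 12 bile acid genes, 5 were tested and 2 were higher, BAAT and FABP6, beside 14.1% of all genes tested.

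Retinoic acid genes changed in both directions. Of 15 tested, 6 were higher and 3 were lower, beside 14.1% higher and 15.0% lower among all genes tested. The median log2 fold change was 0.65. DHRS3, a reductase that returns retinaldehyde to retinol and is induced by retinoic acid, rose from 2.54, 1.29 and 1.13 CPM to 408 and 541 CPM (8.15, SE 0.37, adjusted p 2.6e-06). RARB, a receptor and a direct target of retinoic acid, rose from 1.29, 1.89 and 1.94 CPM to 74.5 and 59.1 CPM (5.29, SE 0.29, adjusted p 5.9e-06). CYP26B1, which degrades retinoic acid, rose to 30.4 and 21.9 CPM from at most 0.414 CPM (6.55, SE 0.42).

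Not all targets and enzymes of this pathway were higher. CYP26A1, another degrading enzyme and retinoic acid target, fell from 1075, 798 and 675 CPM to 263 and 261 CPM (−1.70, SE 0.23, adjusted p 0.00066). ALDH1A3, which makes retinoic acid, fell from a mean of 21.2 CPM to 0.542 CPM (−5.29), while ALDH1A1 was higher at low level (2.26 CPM against 0.305 CPM, adjusted p 0.012). ALDH1A2, the main enzyme of the trunk mesoderm, was under 1 CPM in both groups (adjusted p 0.73). CRABP1 was lower in the controls (−1.67, SE 0.21) and was not called in the LTR5 CRISPRi arm (−0.88, adjusted p 0.061).

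The promoters of RARB and CYP26A1 are shown because these members moved in opposite directions and both hold the letters of a direct repeat of the kind that retinoic acid receptors bind. The letters TTCA, any 5 bases and AGTTCA were searched on both strands of the 250 bases before the start of each RefSeq gene (GRCh38.p14), and were found in these 2 of 14 list members with a promoter and in 0.0769% of all 35116 promoters. A match is a description of the sequence and no test of binding. They lie 51 to 37 bases before the start of RARB (chr3:25428013-25428262, + strand) and 90 to 76 bases before that of CYP26A1 (chr10:93073643-93073892, + strand, motif on the opposite strand). Capitals mark the match to the letters searched, not the whole repeat.
RARB: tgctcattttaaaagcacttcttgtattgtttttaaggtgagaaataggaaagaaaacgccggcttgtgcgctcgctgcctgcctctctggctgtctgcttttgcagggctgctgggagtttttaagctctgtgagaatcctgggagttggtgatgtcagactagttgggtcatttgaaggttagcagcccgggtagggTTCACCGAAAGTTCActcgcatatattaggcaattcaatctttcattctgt
CYP26A1: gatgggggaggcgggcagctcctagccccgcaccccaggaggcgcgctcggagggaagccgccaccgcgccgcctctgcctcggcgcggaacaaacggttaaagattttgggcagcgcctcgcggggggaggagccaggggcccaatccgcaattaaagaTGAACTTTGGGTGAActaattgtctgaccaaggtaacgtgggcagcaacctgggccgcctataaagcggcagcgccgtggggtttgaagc

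Most genes of the Nodal and Activin pathway that passed the test were lower. Of 19 tested, 12 were lower and 1 was higher, with a median log2 fold change of −2.77 (−1.65 with bounds). NODAL, the ligand, measured 156, 215 and 176 CPM in endoderm and 1.62 and 1.05 CPM in foregut (−7.10, SE 0.34), and its co-receptor TDGF1 826, 566 and 516 CPM against 4.70 and 5.07 CPM (−7.02, SE 0.33). LEFTY1 and LEFTY2, secreted inhibitors that Nodal induces, were at 0 in both foregut libraries, from 68.0, 210 and 115 CPM (at least 339-fold lower) and from 30.1, 82.9 and 41.6 CPM (at least 133-fold lower). Receptors and SMADs differed less. ACVR2B measured 120, 82.9 and 79.9 CPM against 82.1 and 61.0 CPM (−0.40, adjusted p 0.25), SMAD3 had a log2 fold change of −0.09 and SMAD4 of −0.25, neither called, and SMAD2 was lower (−1.06, adjusted p 0.0040). INHBA, the subunit of Activin A, was at 0 in endoderm and at a mean of 1.04 CPM in foregut (adjusted p 0.020).

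Of 21 FGF genes, 17 were lower, and FGFR4 was the member called higher (1.26, adjusted p 0.0027). The median log2 fold change was −2.31. FGF17, a ligand of the FGF8 family, measured 1134, 1054 and 1106 CPM in endoderm and 0.162 and 0 CPM in foregut (−13.79, SE 0.59, adjusted p 2.1e-06). The genes that FGF signals through ERK induce fell with it. SPRY4 went from 211, 156 and 162 CPM to 5.71 and 4.71 CPM (−5.08, SE 0.28), ETV4 from 145, 155 and 138 CPM to 6.39 and 5.25 CPM (−4.65, SE 0.25), and DUSP4 from 288, 297 and 272 CPM to 59.3 and 61.6 CPM (−2.24, SE 0.20). The groups did not overlap for any of these, as for 70.7% of all genes with at least 5 CPM in 1 group.

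Of 24 WNT genes tested, 12 were lower and 4 were higher, beside 15.0% lower and 14.1% higher among all genes tested. The median log2 fold change of the list was −2.91 (−2.02 with bounds). The ligands WNT3 (−2.59) and WNT4 (−3.52) were lower, as was AXIN2, a general target of β-catenin, which went from 30.1, 34.7 and 31.5 CPM to 4.90 and 2.77 CPM (−3.07, SE 0.33). The secreted antagonists changed in both directions. SFRP1 fell from 355, 499 and 353 CPM to 45.2 and 31.0 CPM (−3.40, SE 0.28), SFRP2 from 102, 121 and 84.5 CPM to 4.38 and 7.53 CPM (−4.10, SE 0.33), and DKK4 from 71.8, 44.6 and 54.8 CPM to 0 (at least 148-fold lower). FRZB rose from 5.53, 12.7 and 9.5 CPM to 358 and 283 CPM (5.11, SE 0.34) and SFRP5, known from foregut and liver endoderm, from 0.250 to 0.414 CPM to 111 and 121 CPM (8.31, SE 0.30).

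BMP and Hedgehog genes gave mixed results, beside 14.1% higher and 15.0% lower among all genes tested. Of 18 BMP genes, 6 were lower and 3 were higher. BMP2 fell from 148, 118 and 122 CPM to 19.9 and 13.9 CPM (−2.94, SE 0.26) and the target ID3 was lower (−1.31, SE 0.24), while ID1 (36.7 to 37.8 CPM against 27.1 and 49.5 CPM, adjusted p 0.91) and ID2 (adjusted p 0.13) were not called. Of 9 Hedgehog genes, 3 were higher and 1 was lower. The ligands IHH (0.0498 to 0.563 CPM against 13.6 and 18.2 CPM, 5.36, SE 0.60) and SHH (0.625 to 1.98 CPM against 6.26 and 6.58 CPM, 2.32, SE 0.49) were higher, as was SMO (1.32). The pathway target PTCH1 measured 21.7, 17.0 and 14.3 CPM against 8.85 and 9.53 CPM and was not called (−0.94, adjusted p 0.033, under the fold limit).

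Epithelial genes were higher. Of 15 junction and keratin genes, 12 were higher and 1 was lower, with a median log2 fold change of 1.46. KRT8 measured 1048, 1369 and 1162 CPM in endoderm and 6484 and 10817 CPM in foregut (2.86, SE 0.23), and its partner KRT18 410, 547 and 486 CPM against 4375 and 4485 CPM (3.20, SE 0.18, adjusted p 6.3e-06). CLDN6, a tight junction protein of early epithelia, rose from 243, 404 and 318 CPM to 1400 and 1467 CPM (2.16, SE 0.23). EPCAM was higher (1.18) and CDH2, N-cadherin, lower (−1.07, called in 10 of 15 alternatives). Of 8 genes of the mesenchymal transition, 4 were lower (SNAI1, SNAI2, ZEB1 and ZEB2, from −1.90 to −2.62) and 2 were higher, among them FN1 (270, 227 and 234 CPM against 1936 and 1471 CPM, 2.81, SE 0.19). VIM overlapped between groups (adjusted p 0.54). ZEB1 was not called in the LTR5 CRISPRi arm (−0.09, adjusted p 0.90). Of 14 basement membrane genes, 4 were higher and 1 was lower, beside 14.1% higher and 15.0% lower among all genes tested.

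Most genes of glycolysis were lower. Of 23 genes of glycolysis and lactate, 20 were lower and 1 was higher, with a median log2 fold change of −2.12. LDHA, which makes lactate, measured 6119, 5316 and 6262 CPM in endoderm and 660 and 591 CPM in foregut (−3.24, SE 0.18, adjusted p 6.5e-06), and ENO1 8918, 7508 and 8553 CPM against 1111 and 1582 CPM (−2.63, SE 0.21). The glucose carrier SLC2A1 measured 1804, 1160 and 1076 CPM against 63.9 and 44.8 CPM (−4.63, SE 0.33), and PDK1, which holds pyruvate back from the mitochondria, 729, 431 and 409 CPM against 11.9 and 16.6 CPM (−5.19, SE 0.37). GAPDH, with 8303 to 9347 CPM in endoderm and 5605 and 6397 CPM in foregut, was under the fold limit (−0.57, adjusted p 0.018). In the LTR5 CRISPRi arm 20 of 23 were also called lower. The summed level of the list was 42633 to 53259 CPM in endoderm and 12141 and 14384 CPM in foregut, with no overlap.

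The 13 mRNAs encoded by the mitochondrial genome were called higher in 7 cases and lower in none, with a median log2 fold change of 1.16. Their sum was 58608, 104557 and 114131 CPM in endoderm and 251670 and 138244 CPM in foregut. This result rests on single libraries, since 2 of the 13 were called without the first foregut library, 13 without the second and 4 without the first endoderm library. Of 17 cholesterol synthesis genes, 12 were lower and none was higher by edgeR (median −1.84), with HMGCS1 at 255, 209 and 222 CPM against 51.8 and 34.2 CPM (−2.41, SE 0.25). SREBF2, the factor that induces the pathway, was lower too (−1.83, SE 0.19). Of 14 genes of amino acid starvation and ER stress, 7 were lower, beside 15.0% of all genes tested. ASNS measured 283, 216 and 197 CPM against 103 and 50.9 CPM (−1.59, SE 0.32), while ATF4 overlapped (adjusted p 0.48).

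Proliferation genes were lower by a smaller margin. Of 24 genes of mitosis and replication, 12 were lower and 1 was higher, with a median log2 fold change of −1.0. TOP2A measured 257, 231 and 233 CPM against 77.9 and 59.6 CPM (−1.81, SE 0.21), and MCM3 did not pass (adjusted p 0.22). MKI67, with 69.7 to 111 CPM against 60.3 and 40.1 CPM, was under the fold limit (−0.93, adjusted p 0.033). CDKN1C, an imprinted inhibitor of the cell cycle, was the member called higher, from 15.0, 20.2 and 18.4 CPM to 184 and 188 CPM (3.38, SE 0.22).

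Of 16 genes of antigen presentation, 9 were higher and 3 were lower, beside 14.1% higher and 15.0% lower among all genes tested. HLA-B measured 19.6, 17.2 and 18.1 CPM in endoderm and 398 and 766 CPM in foregut (4.99, SE 0.30), and CD74, the invariant chain of class II, 4.23, 9.02 and 7.81 CPM against 329 and 375 CPM (5.65, SE 0.33). HLA-DQB1 went the other way, from 209, 155 and 168 CPM to 12.0 and 9.37 CPM (−4.05, SE 0.27), and HLA-DRB1 was lower too (−2.62). HLA genes are highly polymorphic and alike, so unique mapping depends on the alleles of a line, and line and stage cannot be told apart for them. B2M was higher as well (91.1 to 99.8 CPM against 205 and 200 CPM, 1.08, SE 0.18), and line and stage cannot be told apart for it either.

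Some markers of other cell types were also higher in foregut, where 14.1% of all genes tested were higher. The list of trophoblast and amnion markers had 5 of 8 higher, with a summed level of 13.0 to 14.9 CPM in endoderm and 180 and 210 CPM in foregut, of which IGFBP3 held 103 and 86.2 CPM and KRT7 37.4 and 89.1 CPM in foregut. Both are also made by other epithelia, and TFAP2B and CGB5 were not tested for lack of reads. Mesenchyme markers had 6 of 9 higher (sum 314 to 364 CPM against 918 and 1348 CPM), with TAGLN at 451 and 853 CPM and COL1A1 at 246 and 234 CPM, and PRRX1 was not tested. Endothelial and blood markers had 5 of 9 higher and 1 lower (77.9 to 171 CPM against 93.4 and 111 CPM), and this sum overlapped between the groups. Only rising members of this list are given next. CDH5, VE-cadherin, stood at 0 to 0.184 CPM in endoderm and 29.8 and 31.6 CPM in foregut, and the embryonic globin HBE1, with 2 reads in endoderm, at 17.2 and 13.0 CPM. HBE1 was not called in the LTR5 CRISPRi arm (adjusted p 0.43).

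Cardiac and lateral mesoderm markers had 5 of 12 higher and 3 lower (80.3 to 217 CPM against 204 and 255 CPM). Among all genes tested, 14.1% were higher and 15.0% lower. ACTC1 rose from 8.46, 7.22 and 6.06 CPM to 105 and 136 CPM (4.05, SE 0.25) and MYL7 was higher (3.97). HAND1 was lower (13.6, 11.7 and 25.1 CPM against 0.324 and 0.948 CPM, −4.68, SE 0.58). The defining factors TBX5 and FOXF1 were at 0 in foregut and NKX2-5 had a mean of 0.145 CPM. These lie under the foregut floor of 0.386 CPM, so their state there could not be read. Neural markers had 1 of 8 higher and 1 lower, with PAX6 and SOX1 at 0 in foregut, which was not read as absence. The part of such cells in the results above was not tested.

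The zinc finger genes of the 19q13.41 cluster, which encode repressors of TEs, were more often lower than higher. Of 27 tested, 14 were lower, 2 were higher and 11 were not called, beside 15.0% lower and 14.1% higher among all genes tested. The median log2 fold change of the 27 was −1.30 against −0.09 for all genes. Among the 21 whose mean reached 5 CPM in 1 group, 10 were lower and 2 were higher. Their median was −0.85, against −0.16 for all such genes. ZNF611 measured 15.9, 11.5 and 11.9 CPM in endoderm and 1.85 and 0.922 CPM in foregut (−3.25, SE 0.42, adjusted p 0.00045), and ZNF320, ZNF468 and ZNF808 were lower as well (−2.96, −2.01 and −2.11). ZNF600 (9.56, 6.58 and 6.44 CPM against 4.15 and 4.20 CPM) did not pass (−0.85, adjusted p 0.084). ZNF880 and ZNF528 were the members called higher (4.25 and 6.12). These paralogs resemble each other and several overlap, so reads may be split among them. Of the other genes named in the study, IQCG (1.87, SE 0.34) and DYSF (1.85, SE 0.33) were higher, and RBBP4, a subunit of PRC2, measured 331, 280 and 290 CPM against 264 and 146 CPM and was not called (−0.55, adjusted p 0.13). KLF4 overlapped between the groups (adjusted p 0.33).

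Among 1030 TE subfamilies, summed over integrants outside exons and scaled to gene reads, 238 were higher (23.1%) and 59 were lower (5.73%) in foregut at an adjusted p under 0.05. Scaled to TE reads instead, 108 were higher and 135 were lower, so the balance of the directions depends on the scaling. Subfamilies called were 28.8% in all. Reads inside gene bodies were 72.5% and 73.0% of TE reads in foregut and 38.0 to 41.6% in endoderm, and their part in the results below was not tested. Of 47 Alu subfamilies, 39 were higher and none was lower by edgeR (31 and none with TE reads as the scale), and of 128 L1 subfamilies 80 were higher and 2 lower (38 and 6). Of 382 LTR and ERV subfamilies, 47 were higher and 31 lower, against 16 and 77 with TE reads as the scale. AluSx measured 199, 224 and 244 CPM in endoderm and 1273 and 1094 CPM in foregut (2.41, SE 0.29), of which 1 integrant in UNC45B held 52.4% of the foregut reads. Without it the level was 164 to 185 CPM against 732 and 422 CPM.

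HERVH, an endogenous retrovirus that is active in pluripotent cells, and LTR7, its promoter, were far lower under both scalings. HERVH-int measured 3003, 3070 and 2392 CPM in endoderm and 91.5 and 57.3 CPM in foregut (log2 fold change −5.25, SE 0.42, adjusted p 4e-05), and LTR7 2920, 2975 and 2290 CPM against 37.9 and 30.0 CPM (−6.33, SE 0.42, adjusted p 1.7e-05). Both subfamilies were high in each endoderm library and low in both foregut libraries. Most integrants join both names, and among those with a single name HERVH-int was still lower (−1.69, adjusted p 0.032) whereas LTR7 was not called (−0.89, adjusted p 0.065). LTR7Y, a younger form, measured 97.1, 110 and 118 CPM against 57.4 and 33.8 CPM (−1.25, SE 0.34, adjusted p 0.018), but integrants with the single name LTR7Y went the opposite way (2.13, adjusted p 0.036). The LTR7Y call was also lost with the replicate block (adjusted p 0.052) and without any 1 of the endoderm libraries (adjusted p 0.067, 0.097 and 0.1).

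Of 677 LTR7 or HERVH integrants tested one by one, 251 were lower and 3 were higher, against 1.55% lower and 3.72% higher among all 44916 integrants (5.27% in all). The strongest loci were an integrant at chr1:223197738-223203498 (hg19), outside genes and 18401 bp from DISP1, with 5447, 9052 and 5020 reads in endoderm and 0 in both foregut libraries, and one at chr3:112137259-112142212, 40601 bp from BTLA, with 7590, 7443 and 4050 reads against 0. The neighbour gene is given for place only. Of 205 LTR7 or HERVH integrants averaging at least 1 CPM in endoderm, 7 did so in foregut and 169 had no foregut read. Among all 587 TE integrants at that endoderm level, these included, 85 kept it in foregut and 379 had no foregut read. Loss of foregut reads was thus common at that level and not particular to LTR7 or HERVH.

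**Figure D4:**
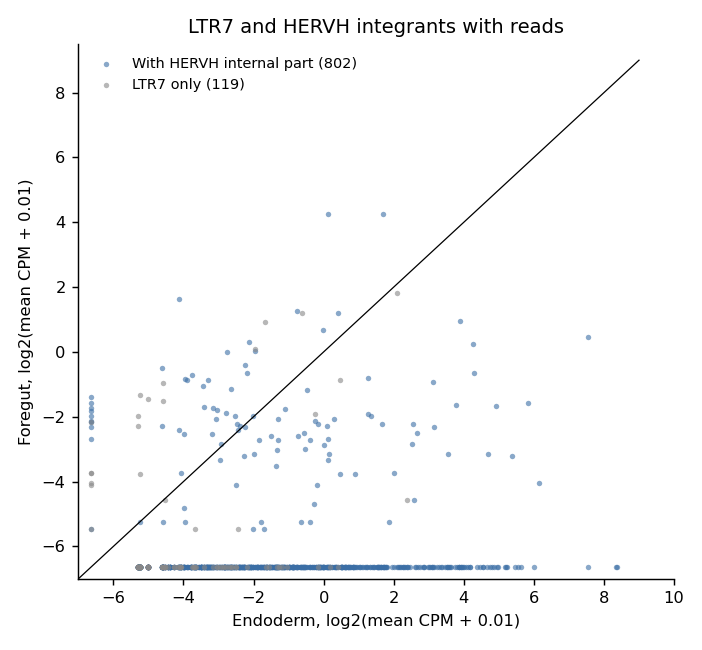
Each point is an LTR7 or HERVH integrant with reads, by its mean level in endoderm and in foregut as log2(mean CPM + 0.01), with those holding the HERVH internal part (802) and those of LTR7 only (119). Points lie mostly below the diagonal, and the row at the bottom is integrants with no read in foregut.

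Other ERV subfamilies turned on single integrants. LTR6B measured 112, 155 and 176 CPM against 3.18 and 2.00 CPM (−5.83, SE 0.45), and 93.9% of its endoderm reads came from the integrant at chr3:146122793-146129944 inside PLSCR2. Without it the level was 7.82 to 9.62 CPM against 3.18 and 1.61 CPM. LTR17 was lower (−1.55, SE 0.34) through an integrant in LINC01194 with 89.4% of its endoderm reads, and the rest of LTR17 measured 2.19 to 2.38 CPM in endoderm and 6.87 and 6.27 CPM in foregut, the opposite order. HERVS71-int and LTR6A were not called when scaled to gene reads (adjusted p 0.25 and 0.68) and were lower when scaled to TE reads (−1.59, adjusted p 0.0006, and −0.79, adjusted p 0.024). The integrant at chr18:47931542-47935100 that leads both was present in both stages, at 373, 139 and 203 CPM and at 497 and 261 CPM. Without it HERVS71-int measured 212, 367 and 418 CPM in endoderm and 13 and 3.79 CPM in foregut, with no overlap. The rest of LTR6A was also lower in both foregut libraries. Of 12 HERVS71-int integrants tested, 6 were lower and none was higher. HERVS71-int was lower with exon-overlapping integrants kept (−1.15, adjusted p 0.014) and with single names (−8.28, adjusted p 0.00093). Its log2 fold change was −1.12 without the first foregut library and −0.10 without the second. LTR12C (−1.90, SE 0.32) and HERV9NC-int (−2.08, SE 0.33) were lower, with an integrant 896 bp from NUDT8 leading both. Neither was called among integrants with a single name (LTR12C −0.53, adjusted p 0.22, and HERV9NC-int 1.58, adjusted p 0.51), nor was LTR6B (−0.62, adjusted p 0.34). Without the integrant near NUDT8, LTR12C measured 61.3 to 66.6 CPM against 34.4 and 29.9 CPM.

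HERVK and its LTRs gave results that depended on the scaling. HERVK-int measured 34.3, 42.7 and 58.7 CPM against 50.3 and 48.4 CPM and overlapped between the groups (adjusted p 0.80). An integrant at chr8:12423309-12424512 held 84.2% of its endoderm reads. The rest of HERVK-int measured 8.66, 4.97 and 7.63 CPM in endoderm and 33.4 and 30.5 CPM in foregut, without overlap. LTR5_Hs measured 10.5, 11 and 9.81 CPM against 6.45 and 4.94 CPM and was not called when scaled to gene reads (−0.87, adjusted p 0.068) but was lower when scaled to TE reads (−1.86, adjusted p 0.00081). LTR5B was higher when scaled to gene reads (1.94, 2.25 and 1.88 CPM against 6.42 and 4.79 CPM, 1.46, SE 0.39, adjusted p 0.016) but not when scaled to TE reads (0.47, adjusted p 0.30). The LTR5B call was also lost with the replicate block (adjusted p 0.051) and without any 1 of the endoderm libraries (adjusted p 0.054, 0.057 and 0.10). MER11C was lower under both (−1.44, adjusted p 0.0096, and −2.36), HERVK11-int was lower at a low level (mean 3.37 CPM against 0.359 CPM, adjusted p 0.031), and MER11A was not called (2.64, 2.21 and 2.38 CPM against 5.48 and 2.59 CPM, adjusted p 0.23). Without the third endoderm library MER11C and HERVK11-int were not called (adjusted p 0.063 and 0.064), nor was HERVK11-int without the first (adjusted p 0.14). MER11A was higher with exon-overlapping integrants kept (2.06, adjusted p 0.0004) and without the second foregut library (1.25, adjusted p 0.011), and MER11C was not called with single names (−1.02, adjusted p 0.06). HERV17-int was higher under both scalings (2.23 and 1.27) but was not called with exon-overlapping integrants kept (0.06, adjusted p 0.91) or with single names (0.98, adjusted p 0.62). An integrant inside PDSS2 held 51.3% of its foregut reads, and the rest measured 1.29, 1.29 and 1.38 CPM against 3.40 and 3.02 CPM. MER11B was higher only when scaled to gene reads (1.32, and 0.33 with adjusted p 0.46), and HERVK22-int and HERVIP10FH-int were not called (adjusted p 0.80 and 0.16). The MER11B call was lost with the replicate block (adjusted p 0.063) and without any 1 of the endoderm libraries (adjusted p 0.075, 0.11 and 0.13). Of younger elements, SVA_D (11.7, 9.98 and 11.3 CPM against 43.9 and 35.9 CPM, 1.86, SE 0.30) was higher under both scalings, L1HS was higher when scaled to gene reads (1.45, adjusted p 0.011) and not called when scaled to TE reads (0.44, adjusted p 0.36), L1PA2 was not called (adjusted p 0.34) and L1PA3 was lower (−1.10, adjusted p 0.018). An L1PA3 integrant 200292 bp from HTR1E, with no foregut read, held 41.4% of the endoderm reads of its subfamily, and the rest of L1PA3 measured 35.9 to 41.6 CPM against 33.5 and 28.4 CPM. The L1PA3 call was lost without any 1 of the endoderm libraries (adjusted p 0.074, 0.11 and 0.12), and that of L1HS without the third (adjusted p 0.061).

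Some TE reads lay near CER1. MADE2, a DNA transposon, was lower at 515, 80.8 and 102 CPM against 4.90 and 1.43 CPM (−6.21), and 99.5% of its endoderm reads were in a 62 bp integrant at chr9:14718014-14718075, 1647 bp from CER1. MIRb was lower (−1.24, adjusted p 0.030) through an integrant 2144 bp from CER1 with 72.1% of its endoderm reads, and the rest of MIRb measured 128 to 151 CPM in endoderm and 242 and 175 CPM in foregut. The MIRb call was lost with the replicate block (adjusted p 0.070) and without any 1 of the endoderm libraries (adjusted p 0.18, 0.084 and 0.087). Among the integrants with the largest rises, an L1MEc at chr14:38023218-38023781 inside MIPOL1 had 807 and 440 reads in foregut and none in endoderm, and an L1MD1 at chr14:38105216-38105899 inside TTC6 had 474 and 174 reads and none. The others of these 5 were Alu elements inside MID1, BMPR1B and IMMP2L. The subfamilies with the largest falls by fitted fold, which depends on the prior count for a group at 0, were Kanga1c, LTR1C3, MER130, AmnSINE2 and LTR43-int. They had 37 to 51 reads over the 5 libraries and none in foregut, and their endoderm means of 0.644 to 0.873 CPM were little above the foregut floor of 0.386 CPM. None of them kept its call with the replicate block (adjusted p 0.056 to 0.16). The subfamilies with the largest rises were AluYk12, UCON34, AluYa8, L1M3d and MLT1-int, with at most 446 reads, and no more than 0.299 CPM in any endoderm library. Of these, AluYk12 and UCON34 lost their call with the block (adjusted p 0.38 and 0.55).

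Further genes stood out by the size of their change. Of the 12 largest rises not yet described, CFAP276, a protein of motile cilia, went from 0 to 206 and 190 CPM (at least 3815-fold higher), KRT4, a keratin of stratified epithelia, from 0 to 41.1 and 65.8 CPM (at least 1031-fold), AOC1, a diamine oxidase of the gut, from 0 to 28.9 and 54.7 CPM (at least 805-fold), ESM1, an endothelial proteoglycan, from 0 to 34.1 and 27.7 CPM (at least 596-fold) and DIO1, a deiodinase of liver and thyroid, from 0 to 23.2 and 18.9 CPM (at least 406-fold). Each was present in both foregut libraries. Of the largest falls, CD48, RFPL2, NLRP2, CD177, CALCR, LGALS12, the pseudogene PPIAP46 and the HERVH-derived RNA ESRG had 18.9 to 123 CPM in the endoderm libraries and no read in foregut, at least 69.3-fold to 254-fold lower. In the LTR5 CRISPRi foregut, CALCR measured 0 and 2.84 CPM, ESRG 0.580 and 1.44 CPM, RFPL2 0.290 and 0 CPM and CD177 0.181 and 0 CPM. These 4 were called lower there too (−4.60, −3.60, −10.16 and −8.91).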

How the data were processed

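Total RNA was made into TruSeq Stranded mRNA libraries. The authors aligned reads with HISAT2 to hg19 and counted reads that map uniquely (MAPQ over 10) on genes and TEs with featureCounts. What they deposited are unnormalised read counts for genes and for TE integrants, and whether the counting used the strand is not given in the sources used here, so overlapping and antisense genes are uncertain. Gene names and places came from GENCODE v44 lifted to hg19 (55665 of 63677 IDs), and 451 of 455 list members were matched. Unplaced IDs held 0.3834 to 0.4566% of the reads of the 5 libraries and stayed in the fits.

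Gene totals were 16376503 to 37152434 reads per library. Counting intervals and floors cover counting error only. Genes with at least 3 reads in 1 of the 5 libraries were tested with edgeR 4.0.16 (quasi-likelihood test, TMM, 2-sided, Benjamini-Hochberg adjustment) in R 4.3.3, on all genes together, and called below an adjusted p of 0.05 if they changed more than 2-fold. CPM used the TMM-scaled totals. Each SE is the absolute log2 fold change divided by the square root of the F statistic, so it is no measure apart from the test. TE fits used the gene totals, left out integrants that overlap exons, and counted joined names for each subfamily, which was called on the adjusted p alone. limma 3.58.1 (voom, the test of the study) and DESeq2 1.42.0 were alternatives, beside other scalings, filters, thresholds, thinning, a replicate block and leaving out each library. On counts simulated at the depth and spread of this comparison (20507 genes), 153 of 200 changed genes were found, 15 of 50 at 2-fold, 42 at 4-fold, 48 at 8-fold and 48 at 16-fold. There were 31 false calls beside these 153. The simulated counts were negative binomial and did not model the shortage of low counts in foregut. They therefore cannot show how often calls on the real foregut libraries are false.

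The genes, lists and comparison were chosen with earlier results of these data known. Genes were named by a rule: the 12 largest rises and 12 largest falls with at least 5 CPM, a symbol and no overlap, up to 6 members of each list by mean CPM, the genes and subfamilies the study names, and the 5 largest changes each way of subfamilies (with 20 reads) and integrants (with 1 CPM). Members of lists given with values beyond these 6, other genes and subfamilies outside the rule (FOXA1, RARB, CYP26B1, NANOG, HHEX, SLC2A1, PDK1, AXIN2, MKI67, AluSx, MADE2, MIRb, LTR12C, HERV9NC-int, LTR7Y and the like) were picked after their values were seen. Gastruloid libraries were not used here, and undifferentiated hESC libraries entered only the line check and the alternative that fits all 12 bulk libraries together. Some members of the gene lists are counted but not reported here by name.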

Additional observations from a re-analysis of the deposited data

Results flagged for a closer look

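For 2 named genes the step from endoderm to foregut differed between the control and LTR5 CRISPRi arms, by the interaction term of edgeR over both arms. Of 22708 genes, 12 had a larger and 32 a smaller log2 step with the sgRNA at an adjusted p under 0.05 and a difference over 2-fold (0.194% in all). ESRG, an RNA made from a HERVH locus, had a log2 step that was 8.58 larger with the sgRNA (adjusted p 0.028). It measured 36.4, 25.0 and 18.9 CPM in control endoderm and 0 in both control foregut libraries, and 7.38, 17.9 and 12.2 CPM against 0.580 and 1.44 CPM with the sgRNA. HAND1, a factor of lateral mesoderm and amnion, had a step of −8.35 relative to the controls (adjusted p 0.028). It measured 13.7, 11.7 and 25.1 CPM in control endoderm and 0.325 and 0.949 CPM in control foregut, and 52.3, 36.2 and 47.4 CPM against 0 and 0 with the sgRNA. Both differences rest on foregut libraries at 0, so their size depends on the prior count, and the direction from endoderm to foregut was down in both arms for both genes. The most frequent read count of TE integrants was 11 and 26 in the CRISPRi foregut libraries, against 9 in both control ones. The 0 of HAND1 there was therefore not read as a lower level than in control foregut.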

How the results depend on the processing

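Counts of genes called, and of genes called with at least 5 CPM, stayed within 1.5 times the reported ones under every alternative run (4976 to 8095 of all genes when 1 library was left out). Of 208 named genes, 167 kept their side of the threshold and their sign under all alternatives run for them, 17 lost their call under at least 1, and 8 that were not called changed sign. These were LIN28A (−0.03 with the replicate block, −0.20 to 0.36), APOC1 (−0.07 to 0.53), ID1 (−0.01 with voom and with the block, −0.03 thinned, −0.39 to 0.39), ATF4 (−0.13 to 0.51), DNMT3A (0.03 with DESeq2 and with RLE size factors, 0.06 with filterByExpr, 0.02 thinned, −0.18 to 0.14), ZNF83 (−0.05 with voom, −0.53 to 0.50), ISL1 (−0.12 to 0.67) and NES (−0.04 to 0.27), where the last range is that with 1 library left out. With TE library sizes HERVK-int went to −0.84, MER11A to −0.30, LTR6A to −0.79, HERVIP10FH-int to −0.10 and L1PA2 to −0.57. With exon-overlapping integrants kept, HERVK-int went to −0.07, LTR6A to −0.08 and HERVK22-int to 0.75, and with single names HERVK22-int went to 1.90, HERVIP10FH-int to −0.72, HERV9NC-int to 1.58 (adjusted p 0.51) and LTR7Y to 2.13 (adjusted p 0.036). LTR6A went to −0.35 without the first foregut library and 0.69 without the second, and HERVK22-int to 0.41 and −3.65. The causes were not tested.

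TE counts depended on the settings. Subfamilies called numbered 169 without the third endoderm library and 558 without the second foregut library, the lowest and highest, with 137 to 433 higher and 32 to 147 lower with 1 library left out. With TE library sizes 108 subfamilies were higher and 135 lower, and integrants called numbered 3656 (608 higher, 3048 lower). With 1 library left out, 1242 (without the second endoderm library) to 15507 (without the second foregut library, and 10887 without the first) integrants were called (802 to 13991 higher, 430 to 1690 lower). In the LTR5 CRISPRi arm 3470 (without the second endoderm library) to 8259 (without the second foregut library) genes were called, 1701 to 4098 higher and 1769 to 4508 lower. The control groups share the replicate numbers 1 and 2 only, and nothing says that a number marks a shared culture or batch. With the replicate block 5481 genes were called (2430 higher, 3051 lower), 38 subfamilies were lower, and 491 integrants were called (178 higher, 313 lower). Dividing foregut counts by their modal count, an alternative chosen after seeing the data, gave 6385 genes. In foregut, where few genes had low counts, a 0 shows less than its read depth would, and the cause was not tested.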

Other observations

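A set of 5 genes of motile cilia, picked after their values were seen, were higher in foregut, and no list of such genes was tested. FOXJ1, the master factor of motile cilia, measured 1.39, 1.01 and 0.625 CPM in endoderm and 219 and 485 CPM in foregut (log2 fold change 8.42, SE 0.45, adjusted p 5.4e-06 by edgeR), and in the LTR5 CRISPRi arm its log2 fold change was 8.94. TTLL9, DNAI2 and CFAP107 had no read in any control endoderm library and 9.11 and 17.3, 4.21 and 5.84, and 13.0 and 19.8 CPM in foregut (at least 255-fold, 96.9-fold and 316-fold higher). CAPSL had 2 reads in endoderm and 48.1 and 52.6 CPM in foregut. All 5 were called in each of the 15 alternatives, which refit the same control libraries and add no separate evidence for genes picked this way.

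The imprinted genes IGF2 and H19, which lie next to each other on chromosome 11, were also picked after their values were seen. IGF2, a fetal growth factor, measured 7.57, 5.02 and 6.69 CPM in endoderm and 4396 and 4951 CPM in foregut (9.51, SE 0.26, adjusted p 3e-07), and H19, a long noncoding RNA, 0.996, 1.01 and 1.44 CPM against 1069 and 1270 CPM (10.00, SE 0.27). Levels of imprinted genes differ between hESC lines, and line and stage cannot be told apart here. The endothelial genes CD34 and PLVAP, also picked after their values were seen, were higher too. CD34 had 3 reads in endoderm and 28.3 and 44.9 CPM in foregut, and PLVAP 0.0498 to 0.0920 CPM against 76.5 and 171 CPM (10.71, SE 0.53). The summed level of the endothelial and blood list overlapped between the groups.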
